A study of Mus musculus with 8 samples.

Results

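The expanded β-chain clonotypes of endogenous CD8+ T (en-T) cells were defined as the T-cell receptor β sequences that held 10 or more of the 10000 reads of a mouse. They numbered 262 of 60131 clonotypes (0.436%) in 8 mice, 30 in the CTX group (n = 3) and 232 in the CTX_CD4 group (n = 5). All mice were C57BL/6 females, 6 to 8 weeks old, that bore B16F10 melanoma from day 0, were depleted of lymphocytes with cyclophosphamide (CTX, 300 mg/kg) on day 3, and were given melanoma-specific T cells of the receptor-transgenic line Pmel-1, with interleukin-2, from day 5. The CTX_CD4 mice also received 200 μg of the anti-CD4 antibody GK1.5 on days 10, 17 and 24, and the CTX mice did not. Cells negative for Thy1.1, the marker of the transferred Pmel-1 cells, and positive for CD8 were sorted from inguinal lymph nodes and spleen on day 25. In both groups the sort was thus aimed at T cells of the host in the presence of transferred cells. Each library was made from the RNA of 1 mouse, and its T-cell identity rests on the sort, since receptor sequences hold no other marker.

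The β chain is made by joining a V, a D and a J segment, and enzymes trim the segment ends and add nucleotides that no segment encodes. The joined stretch, the CDR3, contacts the peptide and differs between T-cell clones, so that all daughters of a cell carry the same CDR3 nucleotide sequence. A clone that divides takes a larger share of the reads. Reads came from RNA by PCR, and the study's methods name no molecular identifiers, so that more cells and more RNA per cell cannot be told apart, reads are not independent molecules, and all intervals below cover counting error only.

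The most abundant expanded clonotype of each mouse is shown first, because these sequences carry the largest read counts and show how the joins were built. Capitals mark nucleotides that were assigned to no segment, and all sequences run 5′ to 3′ from the deposited CDR3.
CTX replicate 1, TRBV13-2 with TRBJ2-1, 94 reads: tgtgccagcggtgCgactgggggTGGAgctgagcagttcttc
CTX replicate 2, TRBV1 with TRBJ2-3, 58 reads: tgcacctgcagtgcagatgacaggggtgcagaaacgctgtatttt
CTX replicate 3, TRBV13-1 with TRBJ1-1, 64 reads: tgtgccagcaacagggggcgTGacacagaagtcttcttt
CTX_CD4 replicate 1, TRBV14 with TRBJ1-4, 68 reads: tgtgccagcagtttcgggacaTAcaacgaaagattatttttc
CTX_CD4 replicate 2, TRBV17 with TRBJ2-4, 70 reads: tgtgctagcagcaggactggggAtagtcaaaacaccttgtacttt
CTX_CD4 replicate 3, TRBV16 with TRBJ1-2, 153 reads: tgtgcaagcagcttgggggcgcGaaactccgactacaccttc
CTX_CD4 replicate 4, TRBV31 with TRBJ2-7, 71 reads: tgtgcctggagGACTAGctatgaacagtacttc
CTX_CD4 replicate 5, TRBV13-3 with TRBJ2-4, 162 reads: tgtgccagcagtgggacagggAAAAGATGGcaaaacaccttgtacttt
The 8 joins used 8 different V segments and held from 0 to 9 unassigned nucleotides. Of these sequences, 7 were found in 1 mouse, and that of CTX_CD4 replicate 1 was also found in CTX_CD4 replicate 2, with 4 reads.

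The members were selected on read count, so the size of the class is a description and was not tested. The CTX mice held 14, 8 and 8 expanded clonotypes, and the CTX_CD4 mice held 42, 17, 26, 52 and 95. They took 3.42%, 1.67% and 2.33% of the reads in the CTX mice (Wilson 95% intervals from 1.44% to 3.79%). In the CTX_CD4 mice they took 7.97%, 3.38%, 7.42%, 9.12% and 23.5%. CTX_CD4 replicate 2 thus lay within the CTX range by reads, and CTX_CD4 replicate 5 alone held 95 of the 262 members. The median member had 13 to 22 reads per mouse, and 86 members had 20 or more reads. Of the 22 members with 50 or more reads, 4 were in the CTX group. At the threshold, 30 members had exactly 10 reads, and 49 clonotypes lay just outside with 9 reads.

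**Figure D1:**
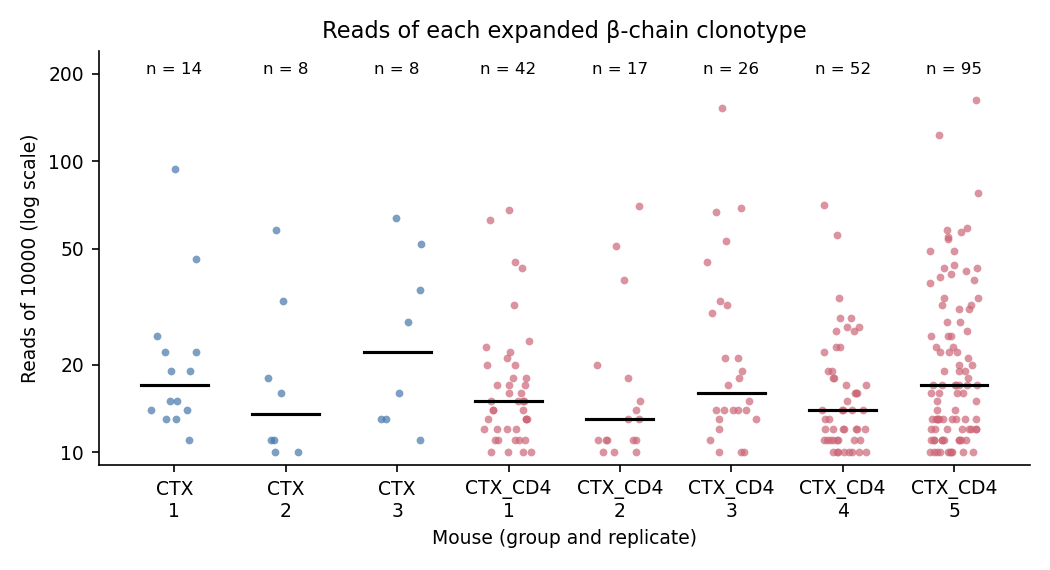
Reads, of 10000, of every expanded β clonotype in each mouse (1 point per clonotype, log scale; bar, median of the mouse). The highest points are 153 reads in CTX_CD4 replicate 3 and 162 reads in CTX_CD4 replicate 5, whereas the medians lie between 13 and 22 reads in all 8 mice.

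V segment use was compared between the expanded clonotypes and the clonotypes of under 10 reads of the same mice, counting each clonotype once. TRBV31 was more frequent among the expanded clonotypes, at 27 of 262 (10.3%) against 3.68% of the rest. TRBV31 lies at 41557691 to 41558452 on the minus strand of chromosome 6 in GRCm38, downstream of the D and J segments, and is known to be joined by inversion. The expanded TRBV31 clonotypes numbered 1, 1 and 0 in the CTX mice, of 14, 8 and 8. They numbered 3, 3, 3, 4 and 12 in the CTX_CD4 mice, of 42, 17, 26, 52 and 95. The TRBV31 share was above that of the rest in 7 of 8 mice, with CTX replicate 3, which had 0, as the exception. The log2 fold change was 1.47 ± 0.29 (SE; edgeR quasi-likelihood test with the mouse as a term, Benjamini-Hochberg adjusted p = 0.000171). Of 24 V segments tested, 1 passed (4.17%), and 2 had an unadjusted p under 0.05. Without CTX_CD4 replicate 5, TRBV31 no longer passed (log2 fold change 1.27, adjusted p = 0.0723), and by an exact sign-flip test of the shares over the 8 mice its adjusted p was 0.125.

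The most abundant TRBV31 clonotype of each mouse that had one is shown because the members behind this excess had different junctions.
CTX replicate 1, TRBJ1-6, 25 reads: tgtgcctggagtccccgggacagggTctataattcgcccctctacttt
CTX replicate 2, TRBJ2-2, 16 reads: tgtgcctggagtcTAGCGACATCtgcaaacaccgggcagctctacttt
CTX_CD4 replicate 1, TRBJ1-6, 43 reads: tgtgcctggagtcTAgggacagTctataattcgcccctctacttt
CTX_CD4 replicate 2, TRBJ2-1, 39 reads: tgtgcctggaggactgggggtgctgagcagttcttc
CTX_CD4 replicate 3, TRBJ2-1, 13 reads: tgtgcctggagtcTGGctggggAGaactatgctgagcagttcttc
CTX_CD4 replicate 5, TRBJ2-1, 49 reads: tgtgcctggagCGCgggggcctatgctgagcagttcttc
The TRBV31 clonotype of CTX_CD4 replicate 4 is the 71-read sequence given above. All 27 expanded TRBV31 clonotypes had different nucleotide sequences, and 3 of them were found in another mouse. All 3 were members of CTX_CD4 replicate 1, with 43, 13 and 11 reads. Their only other mouse was CTX_CD4 replicate 2, with 4, 1 and 2 reads, and this pair of libraries is taken up below. The 27 held 10 to 71 reads (median 13) and joined TRBJ2 segments in 16 and TRBJ1 segments in 11. Their CDR3 averaged 13.6 ± 2.14 amino acids (SD over clonotypes), against 13.8 for the 2206 TRBV31 clonotypes of the rest.

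The TRBV31 share was higher in the classes of 5 or more reads than in those below 5 reads. Over the 8 mice together, TRBV31 made up 3.56% of clonotypes with 1 read, 4.13% with 2 to 4, 7.54% with 5 to 9, 10.8% with 10 to 19, and 9.30% with 20 or more. Among clonotypes of under 10 reads, TRBV31 clonotypes averaged 1.31 reads and those of other V segments 1.24, and 19.04% against 16.18% of them had more than 1 read. The part of V-specific amplification in these values was not tested.

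**Figure D2:**
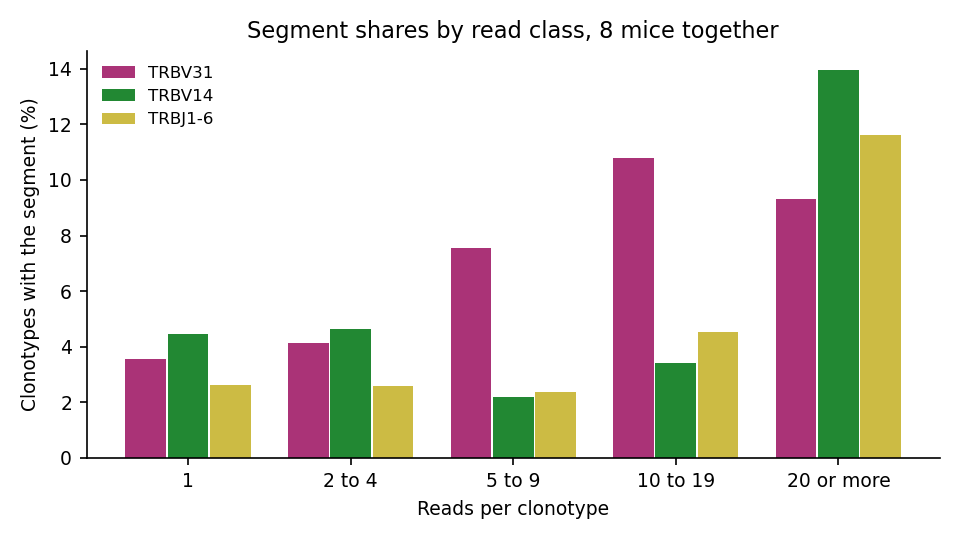
Share of clonotypes (%) that used TRBV31, TRBV14 or TRBJ1-6 in each class of reads per clonotype, pooled over the 8 mice and drawn without error bars. TRBV31 goes from 3.56% at 1 read to 10.8% at 10 to 19 reads, whereas TRBV14 and TRBJ1-6 are highest at 20 or more reads, where 1 sequence found in all 8 mice recurs.

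TRBV14, the V segment of the Pmel-1 β chain (called Vβ13 in older naming), was used by 18 expanded clonotypes (6.87%), against 4.45% of the rest. Its log2 fold change was 0.63 ± 0.33 (SE; edgeR, adjusted p = 0.402), so it did not pass the test. A single sequence accounted for 7 of the 18, and a second for another 2. In the CTX group the V segment with most expanded clonotypes was TRBV13-1, with 5 of 30 (16.7%), against 10.5% of the rest. In the CTX_CD4 group it was TRBV31, with 25 of 232 (10.8%), against 3.76%. Over both groups TRBV13-1 did not pass (log2 fold change -0.16 ± 0.32, edgeR adjusted p = 0.801).

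Among J segments, TRBJ1-6 (chromosome 6, 41535554 to 41535606) was used by 18 expanded clonotypes (6.87%), against 2.62% of the rest. The CTX mice held 3, 1 and 1 of these, and the CTX_CD4 mice held 3, 2, 2, 2 and 4, so that every mouse was above its rest, which used TRBJ1-6 in 2.37% to 2.77%. The log2 fold change was 1.49 ± 0.43 (SE; edgeR, adjusted p = 0.0110), and it was the 1 of 12 J segments tested that passed (8.33%). The same TRBV14 with TRBJ1-6 sequence made up 7 of the 18. Without clonotypes found in all 8 mice, TRBJ1-6 was used by 11 of 254 expanded clonotypes (4.33%), and the log2 fold change was 0.79 ± 0.50 (edgeR, adjusted p = 0.930). CTX replicate 3 and CTX_CD4 replicate 4 were then below their rest. They had 0 of 7 (0%, against 2.44%) and 1 of 51 (1.96%, against 2.74%). The call was also lost without CTX_CD4 replicate 2 (adjusted p = 0.0511), without the clonotypes common to CTX_CD4 replicates 1 and 2 (0.0867), at 5 or more reads (log2 fold change 0.62, adjusted p = 0.257) and by the exact sign-flip test of shares (adjusted p = 0.0938).

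The most used J segment of the expanded clonotypes was TRBJ1-1 in the CTX group, with 6 of 30 (20%, against 9.57% of the rest). In the CTX_CD4 group it was TRBJ2-7, with 38 of 232 (16.4%, against 21.9%). Neither passed the test over both groups (edgeR, adjusted p = 0.954 and 0.649).

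The β locus holds J segments in clusters, TRBJ1 and TRBJ2, and the share of joins to TRBJ2 separated the expanded clonotypes of the groups. In the CTX mice 42.9%, 50% and 50% of expanded clonotypes used TRBJ2, against 70.8%, 68.3% and 72.4% of the rest. In the CTX_CD4 mice the shares were 69.0%, 70.6%, 61.5%, 80.8% and 56.8%, against 69.0% to 70.7% of the rest. Expanded minus rest was -27.9, -18.3 and -22.4 percentage points in the CTX mice and -0.50, 0.23, -8.81, 11.8 and -13.9 points in the CTX_CD4 mice, so that all 3 CTX mice were lower than each CTX_CD4 mouse. The difference from the rest averaged -22.9 ± 4.82 points in the CTX group (SD, n = 3) and -2.24 ± 9.79 in the CTX_CD4 group (SD, n = 5). The groups did not overlap (exact Mann–Whitney U-test, two-sided p = 0.0357, the smallest that 3 mice against 5 allow), but after adjustment over the 6 measures the exact p was 0.214. Over all 8 mice the difference was -9.97 ± 13.2 points (exact sign-flip test, p = 0.0781, adjusted 0.234).

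The CTX shares rest on few clonotypes: 14 of 30 expanded CTX clonotypes used TRBJ2, and each mouse's Wilson 95% interval was wide, from 21.4% to 67.4% in replicate 1 and from 21.5% to 78.5% in replicates 2 and 3. The TRBV14 with TRBJ1-6 sequence counted against TRBJ2 in CTX replicates 1 and 3. Without clonotypes found in all 8 mice, TRBJ2 was used by 4 of 7 in CTX replicate 3. It was used by 54 of 94 in CTX_CD4 replicate 5, so these shares were close. The group difference from the rest was then 19.1 points (exact Mann–Whitney p = 0.0357, adjusted 0.0714). The groups overlapped at 5 or more reads (difference 6.07 points, exact p = 0.0714) and at 20 or more (exact p = 0.571), where the CTX mice were at 20%, 100% and 0% and the CTX_CD4 mice at 50% to 81.6%.

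**Figure D3:**
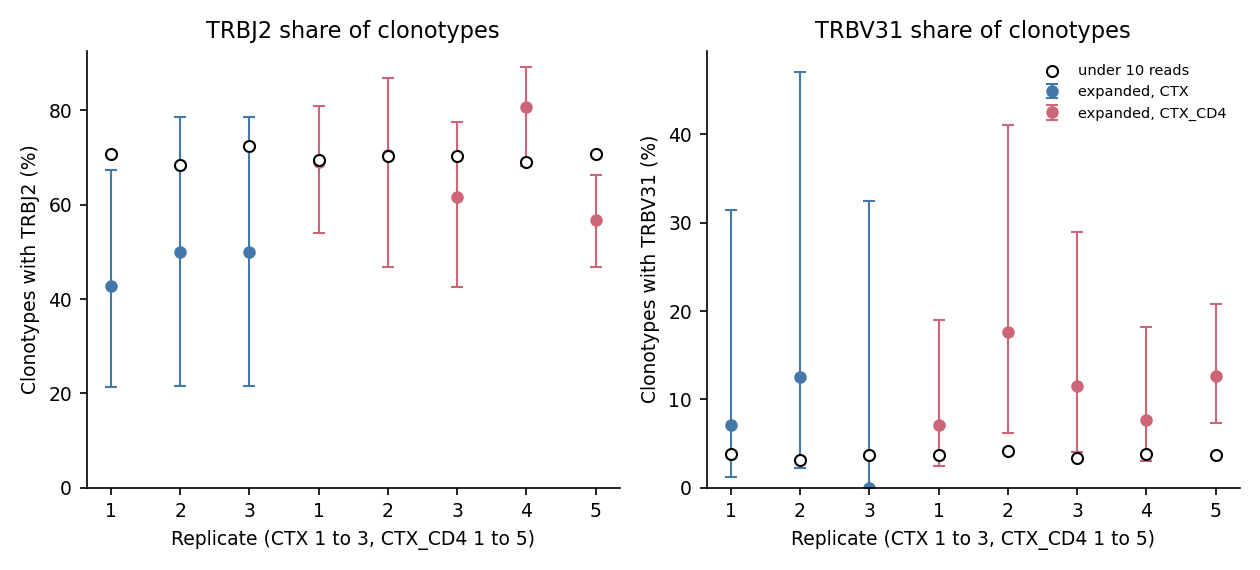
Share (%) of expanded clonotypes (filled points, Wilson 95% intervals) and of clonotypes under 10 reads (open points) that used TRBJ2 (left) or TRBV31 (right) in each mouse. The 3 CTX mice lie at 42.9% to 50% for TRBJ2, below the 56.8% to 80.8% of the CTX_CD4 mice, and the TRBV31 share of expanded clonotypes lies above the open points in 7 of 8 mice.

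A D segment was assigned in 187 of the 262 expanded clonotypes. The share per mouse was 71.4%, 62.5% and 75% in the CTX group and 69.0%, 82.4%, 80.8%, 82.7% and 62.1% in the CTX_CD4 group. These shares scattered around those of the rest, which lay between 72.0% and 73.2%. The mean difference was 0.604 ± 8.34 points (SD, n = 8; exact sign-flip test, p = 0.867), higher in 4 mice and lower in 4, and between groups the exact Mann–Whitney p was 0.571. TRBD1 was assigned in 106 expanded clonotypes and TRBD2 in 81. TRBD2 lies downstream of the TRBJ1 cluster, and 3 of the 81 joins with TRBD2 (3.70%) were nevertheless assigned a TRBJ1 segment, against 5.18% in the rest. The deposited D positions matched the germline segment in 69.0% of the members with a D, fewer than for V (84.7%) or J (82.8%), so D calls are the least certain.

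The CDR3 of expanded clonotypes had a median of 14 amino acids, as had that of the rest. The mean length was 13.9, 13.9 and 13.6 amino acids in the CTX mice and 13.2, 13.5, 14.7, 13.9 and 13.7 in the CTX_CD4 mice. The rest lay between 13.8 and 13.9 in every mouse. Expanded clonotypes were longer than the rest in 3 mice and shorter in 5, by -0.0795 ± 0.446 amino acids on average (SD, n = 8; exact sign-flip test, p = 0.609), and the groups overlapped (exact Mann–Whitney p = 1). CTX_CD4 replicates 1 and 3 lay farthest from their rest, on opposite sides. All expanded clonotypes were in frame, which does not set them apart, because no deposited clonotype held a stop or frame mark. Of them, 261 ran from the conserved cysteine to phenylalanine or tryptophan. Of all 60131 clonotypes, 136 did not.

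Unassigned nucleotides, those assigned to no segment, include added nucleotides and, where no D was called, any nucleotides of an uncalled D. They averaged 3.79, 3.88 and 2.63 per expanded clonotype in the CTX mice. In the CTX_CD4 mice they averaged 2.52, 3.18, 3.00, 3.06 and 3.47. The rest lay between 2.90 and 3.03 in every mouse. Expanded clonotypes held more in 6 of 8 mice, with a mean difference of 0.198 ± 0.507 nucleotides (SD, n = 8; exact sign-flip test, p = 0.281; between groups, -0.389 nucleotides, exact Mann–Whitney p = 0.393). In joins with a D segment only, the mean difference was 0.152 (exact p = 0.203) and the group difference -0.010 (exact p = 1). A join with 0 unassigned nucleotides was found in 33 expanded clonotypes (12.6%), against 16.02% of the rest, and one with 8 or more in 18 (6.87%), against 5.00%. These shares were not tested.

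**Figure D4:**
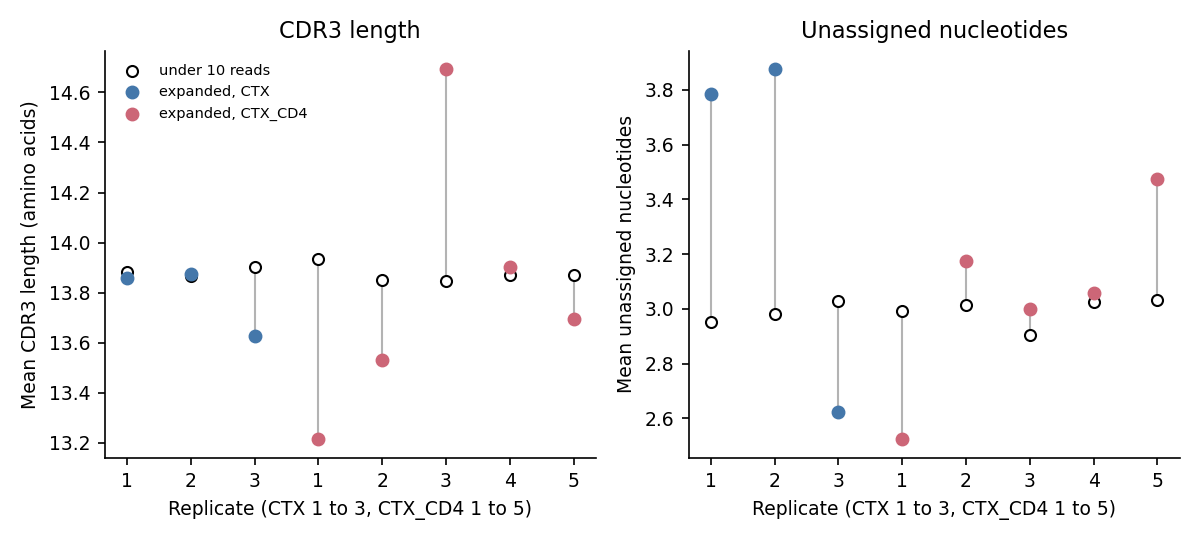
Mean CDR3 length in amino acids (left) and mean number of unassigned nucleotides (right) of expanded clonotypes (filled) and clonotypes under 10 reads (open) in each mouse, joined by a line. The open points stay within 13.8 to 13.9 amino acids and 2.90 to 3.03 nucleotides, whereas the filled points scatter on both sides of them.

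Sharing between mice was measured by looking for the exact CDR3 nucleotide sequence of each expanded clonotype in the other 7 libraries. Of the 262 members, 211 were found in 1 mouse, 38 in 2, 5 in 3 and 8 in all 8. The share found in another mouse was 7.14%, 0% and 12.5% in the CTX mice and 81.0%, 11.8%, 7.69%, 9.62% and 6.32% in the CTX_CD4 mice. The rest lay between 4.07% and 5.71%. The share was above that of the rest in 7 of 8 mice, by 12.3 ± 25.7 points (SD, n = 8; exact sign-flip test, p = 0.0469, adjusted over the 6 measures 0.234). The size and the count of mice depended on 1 mouse and on the sequences found in all mice. Without CTX_CD4 replicate 1 the difference was 3.28 points (exact p = 0.0938), and without clonotypes found in all 8 mice it was 8.21 points, higher in 4 of 8 mice (exact p = 0.844). Between groups, the difference was 15.95 points (exact Mann–Whitney p = 0.786). Without the clonotypes found in all 8 mice, 0 of 13, 0 of 8 and 0 of 7 expanded clonotypes of the CTX mice were found elsewhere. The CTX_CD4 mice then had 32 of 40, 1 of 16, 1 of 25, 4 of 51 and 5 of 94. The rest, with those clonotypes kept, was at 4.07% to 5.71%. Apart from the 32 of 40, the counts therefore do not set these few members apart from their rest. Of the 32 in CTX_CD4 replicate 1, 31 were otherwise found only in CTX_CD4 replicate 2. The group difference was then 19.9 points (exact Mann–Whitney p = 0.0357, adjusted 0.0714). This filter drops clonotypes by the sharing that is measured, so its p cannot decide whether the groups differ in sharing.

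In CTX_CD4 replicate 1, 34 of 42 expanded clonotypes were found in another mouse, and all 34 were in CTX_CD4 replicate 2. Of these, 31 were in no other mouse. The 31 held 653 reads in replicate 1 and 67 in replicate 2, which is 10.3 reads per 100. None of them was expanded in replicate 2, where they held 1 to 7 reads (median 2) and 14 held 1 read. In the other direction, 1 of the 17 expanded clonotypes of replicate 2 was found in replicate 1, and it was the sequence found in all 8 mice. The 5 most abundant of replicate 1 show the pattern, and the first is its 68-read sequence given above. The others are listed with their reads in replicate 1 and then replicate 2.
TRBV13-2 with TRBJ1-4, 63 and 7 reads: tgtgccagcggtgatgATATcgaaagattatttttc
TRBV1 with TRBJ2-7, 45 and 3 reads: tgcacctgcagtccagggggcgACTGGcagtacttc
TRBV31 with TRBJ1-6, 43 and 4 reads: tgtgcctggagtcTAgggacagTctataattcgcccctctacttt
TRBV13-2 with TRBJ2-4, 32 and 7 reads: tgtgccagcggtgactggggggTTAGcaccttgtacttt
The libraries of these 2 mice therefore stood apart in sharing. Whether they shared a run, plate or index is not given in the sources used here, and the part of carry-over between them in the 81.0% was not tested. With this pair not counted as each other's other mouse, the share of expanded clonotypes found elsewhere was 7.14% in replicate 1 and 11.8% in replicate 2, and the mean difference from the rest over 8 mice was 3.49 points (exact sign-flip test, p = 0.0547), an alternative chosen after seeing the data.

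**Figure D5:**
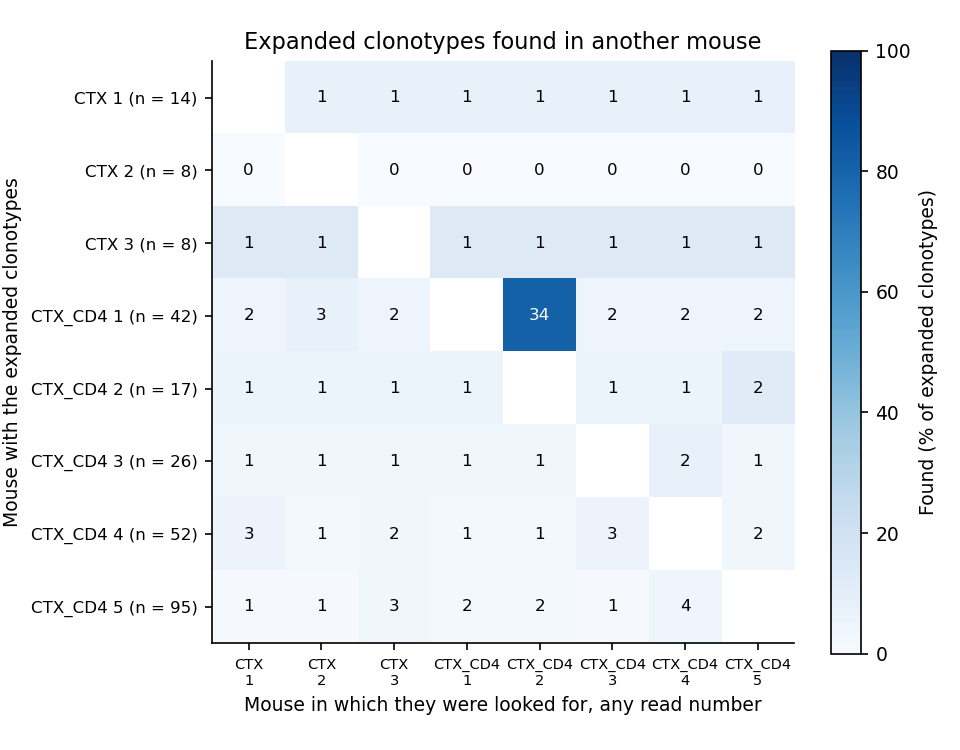
Number of expanded clonotypes of each mouse (rows) whose CDR3 nucleotide sequence was found with any number of reads in each other mouse (columns), coloured by percent of the row's expanded clonotypes. The cell of CTX_CD4 replicate 1 in CTX_CD4 replicate 2 holds 34 of 42, and every other cell holds 4 or fewer.

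By amino acid sequence with the same V and J, the share found in another mouse was 7.14%, 0% and 12.5% in the CTX mice, and 81.0%, 17.6%, 15.4%, 9.62% and 13.7% in the CTX_CD4 mice. The rest lay between 10.0% and 11.6%. The mean difference was 9.0 ± 25.1 points (SD, n = 8; exact sign-flip test, p = 0.461; between groups, exact Mann–Whitney p = 0.0714, adjusted 0.214). Without CTX_CD4 replicate 1 it was 0.308 points, and the group difference went from 20.2 to 6.88 points. Without clonotypes found in all 8 mice the group difference was 24.8 points (exact Mann–Whitney p = 0.0357, adjusted 0.0714), with CTX_CD4 replicate 1 included. Here too the filter drops clonotypes by how many mice share them, so this p cannot decide whether the groups differ in sharing. Of the members, 26 had more than 1 nucleotide sequence for their amino acid clonotype over the 8 mice, up to 10. No such share of the rest is given beside it, so this count describes the members and does not set them apart.

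Amino acid clonotypes that were expanded in 2 or more mice numbered 2, and both used TRBV14. They are shown because each kept the same nucleotide sequence in every mouse where it was expanded.
TRBV14 with TRBJ1-6, all 8 mice: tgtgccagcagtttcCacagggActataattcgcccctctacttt
TRBV14 with TRBJ2-1, CTX_CD4 replicates 4 and 5: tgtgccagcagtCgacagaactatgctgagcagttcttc
The first held 46, 3 and 28 reads in the CTX mice and 23, 51, 18, 23 and 28 in the CTX_CD4 mice. It was thus expanded in 7 mice, and the 3 reads of CTX replicate 2 lay at the limit of 3 reads taken as detected. The second had 23 reads in CTX_CD4 replicate 4 and 57 in replicate 5. Its nucleotide sequence also had 1 read in CTX replicate 3, under that limit and assigned to TRBV15. The sequence of the Pmel-1 receptor was not used here, and the part of transferred cells in the first sequence was not tested. Another sequence found in all 8 mice was truncated, without the conserved cysteine, and passed the threshold in CTX_CD4 replicate 1 with 11 reads, assigned to TRBV13-3. In the other mice it had 4 to 9 reads and was assigned to TRBV21, so its V segment is uncertain.

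Expanded clonotypes were also compared with each other. Over all mice, 377 pairs of different expanded clonotypes had the same V segment and CDR3 length. Of these pairs, 0 differed at 1 amino acid and 7 at 2, and pairs of the rest are not given for comparison. In CTX_CD4 replicate 5, however, 2 amino acid clonotypes were each expanded in 2 nucleotide forms, a feature singled out after the values were seen.
TRBV12-1 with TRBJ1-2, 22 reads: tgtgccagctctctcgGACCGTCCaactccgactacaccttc
TRBV12-1 with TRBJ1-2, 16 reads: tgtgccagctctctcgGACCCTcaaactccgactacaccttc
TRBV2 with TRBJ1-2, 16 reads: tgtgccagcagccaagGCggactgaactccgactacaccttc
TRBV2 with TRBJ1-2, 10 reads: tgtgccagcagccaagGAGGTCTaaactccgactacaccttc
The forms differed at 2 nucleotides in the TRBV12-1 pair and at 3 in the TRBV2 pair, each in a different codon. The 4 nucleotide sequences were found in no other mouse. By amino acid sequence, however, the TRBV12-1 clonotype was found in 4 mice, with 3 nucleotide forms in this mouse. The TRBV2 amino acid clonotype was found in 1 mouse. These were 2 of 93 expanded amino acid clonotypes of that mouse (2.15%), against 0.759% with more than 1 form in its rest and 0 in the expanded clonotypes of the other 7 mice. The difference was not tested.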

How the data were processed

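Per the labels and the study's methods, RNA of sorted cells was amplified by nested PCR for the TCR chains and sequenced, and the authors trimmed the reads, aligned them in MiXCR, extracted the chains with VDJtools and down-sampled them. The reference library is not given in the sources used here; the submitters' processing notes name mm10. The deposited counts are reads per β clonotype (CDR3 nucleotide sequence), and every library summed to 10000 after down-sampling, while clonotypes per library ran from 5671 to 8529. For a single clonotype 3 reads (0.03%) were taken as detected, whereas sharing between mice counted matches of any read number. The deposited positions of V, D and J ends gave the unassigned nucleotides. α-chain counts were not used here.

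Expanded clonotypes had 10 or more reads. The threshold, the members and the named segments were chosen with earlier results of these data known. For each mouse the mean or share of expanded clonotypes was compared with that of clonotypes under 10 reads, by an exact two-sided sign-flip test over 8 mice (smallest p 0.00781). The differences were compared between groups by an exact Mann–Whitney U-test (two-sided, smallest p 0.0357). Adjustment was by Benjamini-Hochberg over 6 measures. Clonotypes per V or J segment with at least 10 clonotypes were tested with edgeR 4.0.16 (R 4.3.3; quasi-likelihood, adjusted p under 0.05, numbers of clonotypes as library sizes), with DESeq2 1.42.0 as an alternative. Other steps used scipy 1.17.1, pandas 2.3.3 and numpy 2.4.6 in Python 3.11.15, and the tests were checked on simulated data. Named were the most abundant clonotype of each mouse, amino acid clonotypes expanded in 2 or more mice, clonotypes found in 5 or more mice, segments that passed, TRBV14 and the most used segment of each group. Coordinates are from GENCODE vM21 on GRCm38. The deposited V end matched the germline segment in 84.7% of members, the D in 69.0% and the J in 82.8%. Mice were grouped by the labels, and alternatives covered the threshold, the rest, the clonotype definition, sharing, the tests and each mouse left out.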

Additional observations from a re-analysis of the deposited data

Results flagged for a closer look

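Of 6 per-mouse results of the CTX_CD4 group, 2 had 1 mouse whose gap to the nearest other mouse was above Dixon's limit of 0.71 of the group's range; chance gives about 1 in 20, and both were the same mouse. The share of expanded clonotypes found in another mouse by nucleotide sequence exceeded that of the rest by 75.2 percentage points in CTX_CD4 replicate 1, and the next mouse had 6.33. By amino acid sequence, V and J the excess in the same mouse was 69.8 points, and the next had 6.02.

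The TRBJ2 difference between expanded clonotypes and the rest was 20.6 points higher in the CTX_CD4 group than in the CTX group. It passed a test of the difference itself before adjustment (exact Mann–Whitney p = 0.0357) but not after (adjusted 0.214).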

How the results depend on the processing

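TRBV31 was higher among expanded clonotypes under all 16 alternatives fitted by edgeR or DESeq2 and passed in 15 of them; the exception was the fit without CTX_CD4 replicate 5 (adjusted p = 0.0723). The number of V segments called, 1 in the report, was 4 at 5 or more reads (TRBV31 and TRBV21 higher, TRBV12-2 and TRBV15 lower), 4 by DESeq2 (TRBV21, TRBV22, TRBV24 and TRBV31 higher, although TRBV22 and TRBV24 had 0 expanded clonotypes) and 4 by the exact sign-flip test of shares (TRBV15, TRBV23, TRBV24 and TRBV26, all lower and with 0 to 2 expanded clonotypes), and 0 to 1 with each mouse left out. The number of J segments called, 1 in the report, was 0 at 5 or more reads, 0 by the exact sign-flip test, 0 to 1 with each mouse left out, and, in alternatives chosen after seeing the data, 0 without clonotypes found in all 8 mice and 0 without those common to CTX_CD4 replicates 1 and 2. TRBJ1-6 stayed higher in all of these fits (log2 fold change 0.62 at 5 or more reads). The TRBV14 log2 fold change turned to -0.28 at 5 or more reads and -0.044 without clonotypes found in all 8 mice.

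None of the 6 measures passed after adjustment under any alternative, within mice or between groups; the directions that turned were of differences that had not passed. The cause was not tested. For CDR3 length, expanded minus rest was 0.123 amino acids at 20 or more reads and 0 by medians (-0.211 to 0.0118 with each mouse left out). The group difference in length was -0.307 at 20 or more reads, 0 by medians and -0.00760 against clonotypes of 2 to 9 reads (-0.196 to 0.194 with each mouse left out). Unassigned nucleotides, expanded minus rest, were -0.129 at 20 or more reads, -0.0326 at 5 or more and -0.0295 with all nucleotides between V and J, and their group difference was 0.185 at 5 or more reads. The D share, expanded minus rest, was -2.36 points at 5 or more reads, -1.19 with mice weighted by their expanded clonotypes, -1.95 without clonotypes common to CTX_CD4 replicates 1 and 2, and -0.333 without those found in all 8 mice (-0.784 to 2.14 with each mouse left out). The group difference in nucleotide sharing was -0.524 points without clonotypes common to CTX_CD4 replicates 1 and 2.

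The same replicate numbers named different animals, and the main tests did not use the numbers as pairs. Deviations in V use of the rest correlated at 0.436, -0.329 and -0.0242 between same-numbered mice. These 3 values have no reference beside them and cannot decide whether same-numbered mice shared a batch. With replicates 1 to 3 as a block, the group difference in TRBJ2 share was 19.8 points (exact sign-flip p = 0.25, the smallest that 3 pairs allow), and the block changed no call. The block differences were 0.0339 amino acids, -0.512 unassigned nucleotides, 7.76 points for the D share, and 25.8 and 30.5 points for sharing by nucleotide and amino acid sequence. With 8 to 14 expanded clonotypes per CTX mouse, 1 clonotype moves a share by 7.14 to 12.5 points, which limits what these libraries can show.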
